A study of Mus musculus with 37 samples.

Results

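The genes of glycolysis and the TCA cycle were followed across bulk RNA-seq libraries of uterine natural killer (uNK) cells. The members were 38 genes, taken by name from a fixed list out of the 53700 genes counted in each library. Of these, 21 encode glucose transporters, the enzymes of glycolysis, lactate dehydrogenases and lactate transporters, and are called glycolytic. The other 17 encode pyruvate dehydrogenase, its kinase Pdk1 and the enzymes of the TCA cycle, and are called mitochondrial. They include Mdh1, although it encodes the cytosolic malate dehydrogenase. No measured value was used to compute the list, but earlier results of these data were known when it was chosen.

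Glycolysis splits glucose in the cytosol into pyruvate, with a small yield of ATP. Pyruvate is then either reduced to lactate and exported, or taken into mitochondria, turned into acetyl-CoA by pyruvate dehydrogenase and oxidised in the TCA cycle. NK cells raise glycolysis when cytokines activate them, and both routes feed their effector functions. uNK cells support the remodelling of uterine vessels in pregnancy.

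Cells came from the uterus of mice at day 9.5 to 10.5 of gestation and were sorted as live CD45+ NKp46+ cells negative for CD3, CD4 and CD8, among other markers. NKG2A and Ly49C/I inhibit NK cells on binding MHC class I molecules and take part in their education. From WT C57BL6 mice there were 9 libraries of cells with neither receptor (uneducated), 9 of NKG2A+ cells without Ly49C/I and 6 of Ly49C/I+ cells without NKG2A. From mice labelled NKG2A KO C57BL6 there were 8 uneducated and 5 Ly49C/I+ libraries, so that all 5 groups came from pregnant mice and none of the 37 libraries held cells with both receptors. How the KO allele was made, the age of the mice, and whether each library came from 1 mouse or from a pool were not given in the sources used here. P-values therefore measure the spread between these libraries, which may be partly technical.

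Between 13287163 and 18875033 reads were counted on genes per library. Klrc1, which encodes NKG2A, was at 494 to 759 CPM (counts scaled to library sizes that were adjusted by TMM factors) in WT NKG2A+ libraries and at or below 13.8 CPM in every other library. Because the gate removed NKG2A+ cells from the WT groups that were compared with KO, Klrc1 did not check the KO label. Klra9, which encodes Ly49I, was at 462 to 1137 CPM in the Ly49C/I+ libraries and at most 123 CPM elsewhere. Klra3, which encodes Ly49C, went the other way, at 25.2 to 107 CPM in Ly49C/I+ libraries against 69.2 to 223 CPM in the other groups. Ly49 genes are near-identical copies, so that reads may have been split between them. Ncr1, which encodes NKp46, was at 487 CPM or above in all libraries. The lineages gated out were not without reads, with summed T cell markers at 256 to 521 CPM and summed B cell markers at 361 to 653 CPM over all libraries. WT uneducated library 5 had 1.12% of its reads on mitochondrial genes, against at most 0.542% in the others. It was also 1 of 4 libraries, in 4 groups, with the fewest genes detected (13982 to 14197).

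The members differ widely in level. Scaled per kb of exon, Ldha, which encodes the muscle-type subunit of lactate dehydrogenase, was the most abundant member in WT uneducated cells, at 671 ± 151 CPM per kb (SD, n = 9). It was followed by Aldoa (aldolase A) at 386 ± 57.6, Gapdh at 265 ± 48.9, Eno1 (enolase) at 254 ± 47.0, Pkm (pyruvate kinase) at 243 ± 52.9 and Tpi1 (triose-phosphate isomerase) at 240 ± 43.1 CPM per kb. The SDs between libraries overlapped for Gapdh, Eno1, Pkm and Tpi1, and their order within libraries was not tested. The highest members of the mitochondrial list were the malate dehydrogenases, the cytosolic Mdh1 at 229 ± 44.3 and the mitochondrial Mdh2 at 192 ± 30.9 CPM per kb. At the low end were Hk2 (hexokinase 2) at 3.50 ± 1.84, Pfkfb3, which makes the activator of phosphofructokinase, at 2.06 ± 0.754, and Ldhb at 0.859 ± 0.990 CPM per kb. Among the hexokinases Hk1 was higher than Hk2, at 22.2 ± 4.31 CPM per kb, and among the phosphofructokinases Pfkp (31.6 ± 3.87) and Pfkl (21.3 ± 4.88) were higher than Pfkm (6.32 ± 2.21).

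The sequences shown here are the 250 bases before the RefSeq start of 6 members, in build GRCm38.p6 and written 5′ to 3′ on the strand of the gene. They are the members that were past the test in at least 2 of the comparisons with uneducated cells, have 1 start in the RefSeq table and have these 250 bases wholly outside the annotated gene. Capitals mark ACGTG or GCGTG on either strand (CACGT or CACGC when read on the other strand), the core letters bound by hypoxia-inducible factors. Where CACGTG, the E-box bound by Myc and related factors, is present, it holds ACGTG on both strands and is counted there as 2 overlapping matches.

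Gpi1 promoter, chr7:34230337-34230586 (minus strand): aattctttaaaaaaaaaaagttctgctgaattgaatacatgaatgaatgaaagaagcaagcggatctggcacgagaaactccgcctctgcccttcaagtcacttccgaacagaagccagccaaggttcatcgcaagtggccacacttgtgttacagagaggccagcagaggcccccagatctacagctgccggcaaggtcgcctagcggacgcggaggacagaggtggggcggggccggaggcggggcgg

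Pgk1 promoter, chrX:106186850-106187099 (plus strand): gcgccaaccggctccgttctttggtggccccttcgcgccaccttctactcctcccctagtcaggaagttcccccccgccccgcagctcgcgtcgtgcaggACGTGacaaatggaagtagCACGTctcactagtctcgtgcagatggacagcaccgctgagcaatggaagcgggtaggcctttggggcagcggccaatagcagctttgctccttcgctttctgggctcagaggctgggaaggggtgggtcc

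Pgam1 promoter, chr19:41911621-41911870 (plus strand): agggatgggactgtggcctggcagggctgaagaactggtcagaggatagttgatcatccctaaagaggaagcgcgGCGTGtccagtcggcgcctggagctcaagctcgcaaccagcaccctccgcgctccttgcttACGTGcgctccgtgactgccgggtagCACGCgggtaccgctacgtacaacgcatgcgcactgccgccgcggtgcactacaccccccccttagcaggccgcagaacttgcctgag

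Slc16a1 promoter, chr3:104638414-104638663 (plus strand): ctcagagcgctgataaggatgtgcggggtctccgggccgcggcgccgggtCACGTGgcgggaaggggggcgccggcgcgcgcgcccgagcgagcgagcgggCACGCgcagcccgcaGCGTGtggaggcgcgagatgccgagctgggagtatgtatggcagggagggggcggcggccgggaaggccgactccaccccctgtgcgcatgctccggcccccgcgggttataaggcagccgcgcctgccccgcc

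Dlat promoter, chr9:50659781-50660030 (minus strand): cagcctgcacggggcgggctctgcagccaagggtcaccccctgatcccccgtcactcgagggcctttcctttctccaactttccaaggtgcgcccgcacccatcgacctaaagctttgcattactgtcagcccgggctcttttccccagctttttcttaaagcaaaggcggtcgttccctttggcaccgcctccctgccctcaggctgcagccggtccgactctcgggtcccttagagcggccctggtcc

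Fh1 promoter, chr1:175625636-175625885 (minus strand): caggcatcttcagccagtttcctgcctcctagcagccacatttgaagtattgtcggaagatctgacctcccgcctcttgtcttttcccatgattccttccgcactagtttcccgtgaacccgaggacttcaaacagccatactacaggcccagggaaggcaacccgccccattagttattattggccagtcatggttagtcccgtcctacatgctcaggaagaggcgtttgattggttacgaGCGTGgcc

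Of the 38 members, 36 had at least 1 promoter in the RefSeq table and Slc2a3 and Idh3a had none. ACGTG or GCGTG was found in 42 of the 54 member promoters (77.8%), and in 38.6% of all 32851 promoters of the same length. Glycolytic promoters held it in 26 of 32 cases (81.3%) and mitochondrial promoters in 16 of 22 (72.7%). Several starts of 1 gene overlap, and member promoters had a median GC content of 60.6% against 52.4% for all. In the set shown, Slc16a1 held 4 matches, Pgam1 3, Pgk1 2 and Fh1 1, while Gpi1 and Dlat held none. CACGTG was in 13.0% of member promoters and 6.02% of all promoters, and within the set shown it was in that of Slc16a1. Matches in letters are a description and were not measured as binding.

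NKG2A+ cells were compared with uneducated cells in WT mice to ask whether the metabolic genes differ with education through NKG2A. Most of the middle and lower glycolytic enzymes were lower in NKG2A+ cells, at 68.2% to 78.5% of the uneducated level for the 7 glycolytic genes that fell in all 3 comparisons with uneducated cells. Of the 37 members that passed the filter of 5 CPM, 14 were called at an adjusted p under 0.05 and all 14 were lower. Called lower were 7.56% of all 9339 genes tested, and 15.0% were called in either direction. Among abundant genes, with a mean of at least 100 CPM, 13.8% were called lower, against 13 of 29 members (44.8%). Over the members the median log2 fold change was -0.30, with -0.41 for glycolytic and -0.20 for mitochondrial members, and over all genes tested it was 0.01.

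Gpi1, glucose-phosphate isomerase, showed the smallest adjusted p. Its level ran from 547 to 689 CPM (median 614) in the 9 uneducated libraries and from 371 to 468 CPM (median 434) in the 9 NKG2A+ libraries. The groups did not overlap, and the log2 fold change was -0.52 ± 0.06 (SE), adjusted p = 1.25e-05. Aldoa went from 858 to 1326 CPM (median 1110) in uneducated cells and from 626 to 818 CPM (median 788) in NKG2A+ cells, again without overlap (log2 fold change -0.55 ± 0.09, adjusted p = 0.000139). Further calls in glycolysis were Gapdh (-0.49), Eno1 (-0.44), Tpi1 (-0.43), Pgk1, phosphoglycerate kinase (-0.40), Pkm (-0.38), Pgam1, phosphoglycerate mutase (-0.37), and Ldha (-0.35). In these genes the groups overlapped. All 5 enzymes of lower glycolysis, from Gapdh to Pkm, were therefore called. With offsets for GC content and length, Pgk1 (-0.32), Pgam1 (-0.27), Ldha (-0.29), Sdhb (-0.19) and Ogdh (-0.19) were no longer called (adjusted p between 0.0520 and 0.114).

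Gapdh, which oxidises glyceraldehyde 3-phosphate, ran from 799 to 1393 CPM (median 1066) in uneducated and from 593 to 850.2 CPM (median 781) in NKG2A+ libraries (log2 fold change -0.49 ± 0.10, adjusted p = 0.00151). For Tpi1, which interconverts the triose phosphates, the ranges were 520.0 to 832 CPM (median 657) and 409 to 531 CPM (median 507). Ldha ran from 1583 to 2939 CPM (median 2238) in uneducated cells and from 1392 to 1905 CPM (median 1757) in NKG2A+ cells, where the spread between libraries was narrower. In all 7 of the genes with overlap, each NKG2A+ library lay below the uneducated median. The share of all genes without overlap between groups was not counted in any comparison. Mdh2, the mitochondrial malate dehydrogenase, ran from 512 to 879 CPM (median 677) in uneducated and from 445 to 548 CPM (median 511) in NKG2A+ libraries.

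On the mitochondrial side, Dlat, the acetyl-transferase subunit of pyruvate dehydrogenase, fell most. It was at 134 to 196 CPM (median 169) in uneducated and at 79.1 to 128 CPM (median 114) in NKG2A+ libraries, without overlap (log2 fold change -0.61 ± 0.10, adjusted p = 0.000366). The other subunits of the complex were not called, with log2 fold changes of -0.06 for Pdha1 and -0.02 for Pdhb. Mdh2 (-0.42), Fh1, fumarase (-0.32), Sdhb, a subunit of succinate dehydrogenase (-0.29), and Ogdh, of the oxoglutarate dehydrogenase complex (-0.20), were also lower. Dlst, another subunit of that complex, had a log2 fold change of 0.31 and was not called (adjusted p = 0.0929).

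The 23 members not called ran from -0.64 (Aldoc) to 0.31 (Dlst) in log2 fold change, and 4 of them lay above 0. They included both glucose transporters, both hexokinases and all phosphofructokinases. Leaving out WT uneducated library 1, 3 or 4 or NKG2A+ library 6 ended the calls of Pgk1, Ldha, Ogdh and Fh1 and left 10, and the call of Ogdh was lost without any 1 of 14 libraries and that of Fh1 without any 1 of 11, of 18. The T cell genes Cd3e and Cd3d were higher in NKG2A+ cells (log2 fold changes of 1.84 and 1.19), and the summed T cell markers, with 3 of 6 tested genes called higher, ran from 299 to 521 CPM against 258 to 337 CPM in uneducated cells. Erythroid and platelet markers, with 2 of 5 called higher, ran from 664 to 2546 CPM against 189 to 1252 CPM. Of 15 dissociation and stress genes 4 were called higher, led by Atf3 (0.64) and Dusp1 (0.61), with sums of 6125 to 9760 CPM against 4763 to 8003 CPM. The endothelial gene Pecam1 (-0.76) and the B cell gene Ighm (-0.38) were called lower, with sums of 125 to 203 against 218 to 345 CPM and of 380.2 to 480 against 391 to 639 CPM for their lists. Over all 9339 genes tested, 698 were called higher and 706 lower. The part of these lists in the result was not tested.

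**Figure D1:**
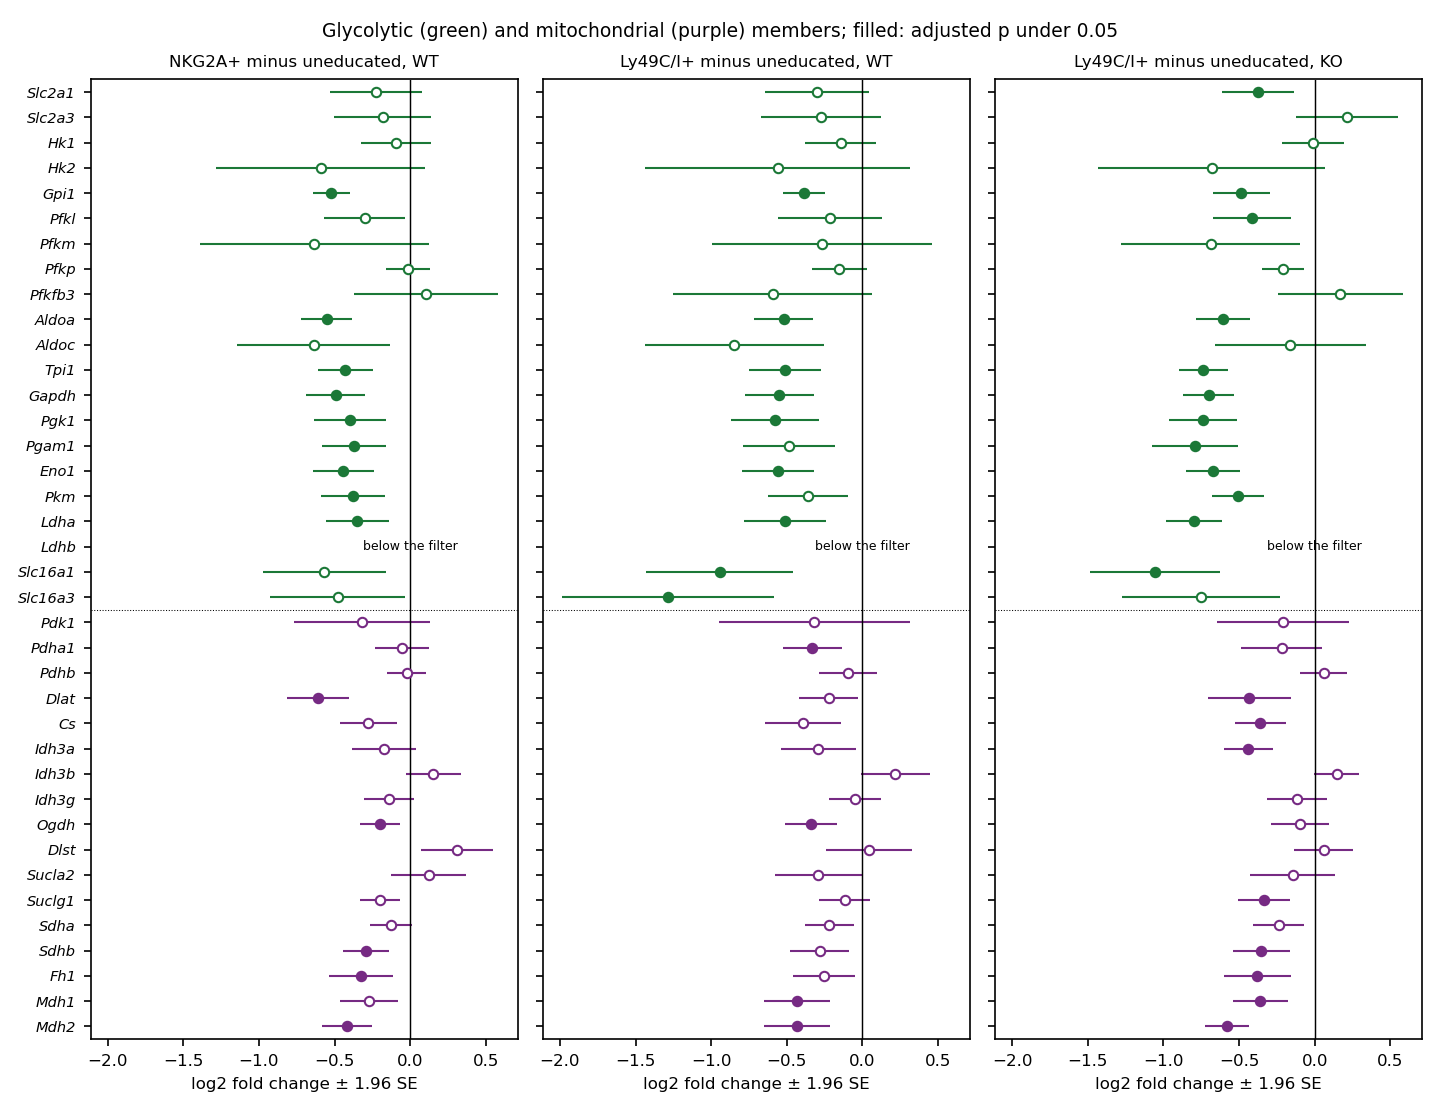
Log2 fold change (x axis, points, with bars of 1.96 SE) of each member (y axis, by pathway order) in 3 comparisons with uneducated cells; green is glycolytic, purple mitochondrial, filled is called. All filled points lie left of 0, with 14, 13 and 20 members called from left to right, and Ldhb did not pass the filter.

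Ly49C/I+ cells were compared with the same WT uneducated libraries, which makes the results of the WT comparisons dependent on each other. Of the 5 enzymes of lower glycolysis, Gapdh, Pgk1 and Eno1 were called lower, and the lactate transporters showed the largest called changes. There were 13 members called, all lower, of 37 tested. Of all 9292 genes tested, 4.70% were called lower and 9.20% in either direction, and among those with at least 100 CPM 11.5% were called lower, against 10 of 27 members (37.0%). Median log2 fold changes were -0.33 for the members, -0.51 for glycolytic and -0.28 for mitochondrial members, and 0.01 for all genes.

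Slc16a3 (MCT4) and Slc16a1 (MCT1) carry lactate and pyruvate across the cell membrane. Slc16a3 ran from 11.3 to 48.2 CPM (median 30.8) in uneducated libraries and from 5.32 to 23.0 CPM (median 10.6) in the 6 Ly49C/I+ libraries, so that the groups overlapped. The log2 fold change was -1.28 ± 0.36, to 41.1% of the uneducated level (adjusted p = 0.0310). Slc16a1 ran from 65.5 to 167 CPM (median 99.2) in uneducated and from 28.0 to 85.0 CPM (median 61.4) in Ly49C/I+ libraries, and 5 of 6 were below every uneducated library (log2 fold change -0.94 ± 0.25, adjusted p = 0.0236).

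Gpi1 and Aldoa did not overlap between the groups. Gpi1 was at 442 to 495 CPM (median 476) in Ly49C/I+ cells, with a log2 fold change of -0.39 ± 0.07 (adjusted p = 0.00420). Aldoa was at 676 to 824 CPM (median 801), with -0.52 ± 0.10 (adjusted p = 0.00444). Pgk1 (-0.58), Eno1 (-0.56), Gapdh (-0.55), Tpi1 and Ldha (-0.51 each) were called as well, while Pgam1 at -0.49 (adjusted p = 0.0545) and Pkm at -0.36 (adjusted p = 0.0999) were not.

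In the mitochondrial part, Mdh1 and Mdh2 (-0.43 each), Ogdh (-0.34) and Pdha1 (-0.33) were called. Cs, citrate synthase, stood at -0.39 with an adjusted p of 0.0599. Dlat, which had fallen most in NKG2A+ cells, stood at -0.22 and was not called (adjusted p = 0.165). The 24 members not called ran from -0.85 (Aldoc) to 0.22 (Idh3b).

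Without Ly49C/I+ library 7 the calls fell to 8, with Pgk1, Ldha, Slc16a1, Slc16a3 and Pdha1 lost, and of 15 libraries left out in turn, 7 ended the call of Slc16a3 and 9 that of Pdha1. With offsets for GC content and length, Pgk1 and Pdha1 were no longer called. Reads assigned to no gene were more frequent in Ly49C/I+ libraries, at 4.16% to 6.83% against 2.90% to 4.47% in WT uneducated libraries. Of the dissociation and stress genes 3 were called higher and 1 lower, with sums of 7563 to 10358 CPM against 4763 to 8003 CPM, and Pecam1 was called lower (-0.68), with endothelial sums of 143 to 219 against 218 to 345 CPM. Over all 9292 genes tested, 418 were called higher and 437 lower. The part of these measures in the result was not tested.

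**Figure D2:**
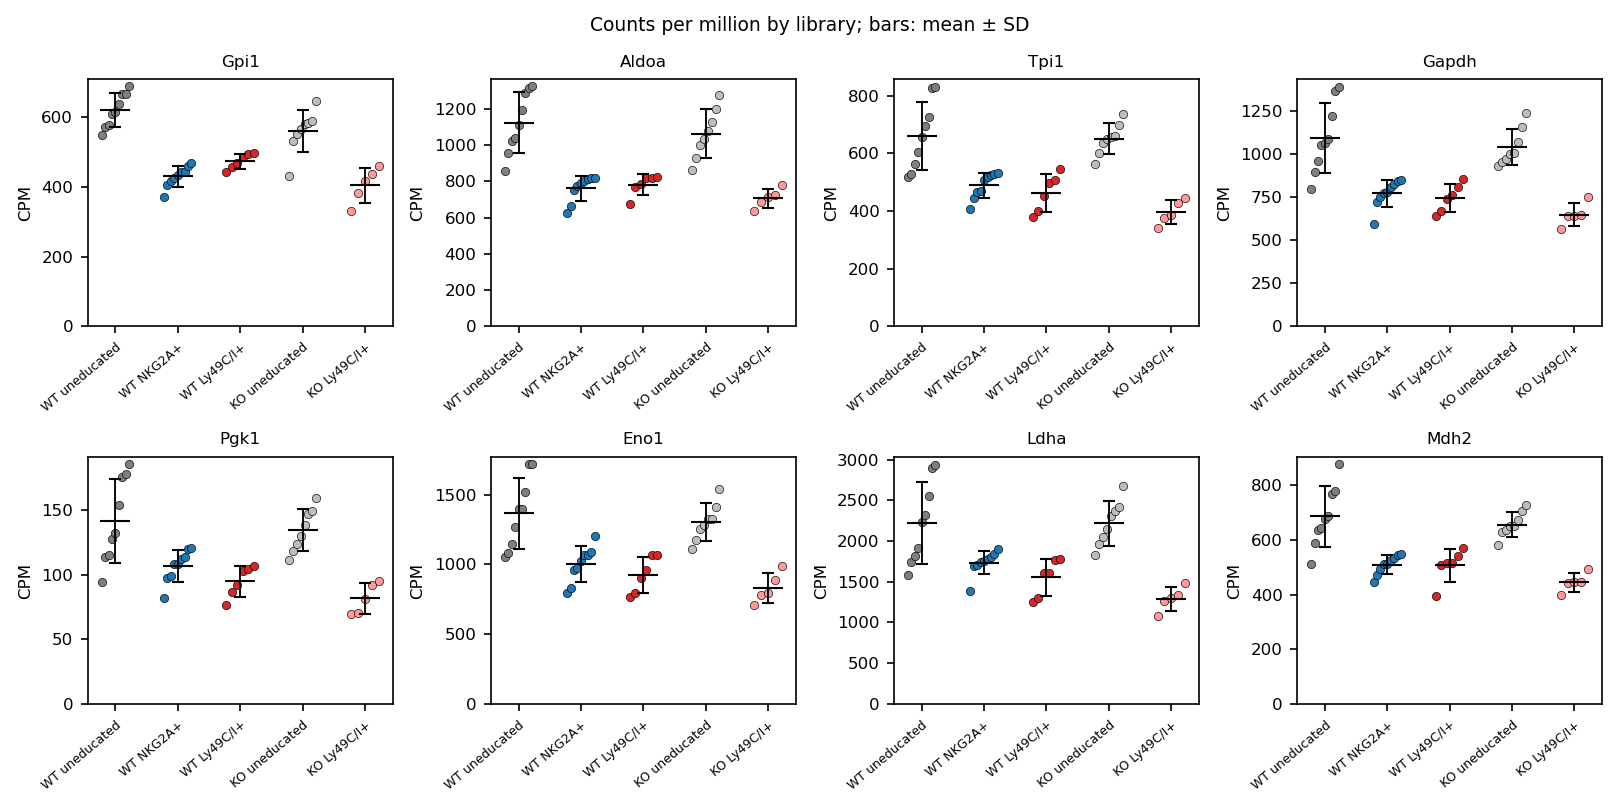
CPM of each library (points, placed by value, y axis from 0) in the 5 groups (x axis), with mean and SD (bars), for the 8 members called in all 3 comparisons with uneducated cells. In each panel the means of the educated groups lie below the uneducated mean of the same genotype, with single libraries at 1392 to 1905 CPM of Ldha in WT NKG2A+ and 1583 to 2939 CPM in WT uneducated libraries, which overlap.

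In KO mice, Ly49C/I+ cells were compared with uneducated cells, and no library was shared with the WT comparisons. Here 20 of 37 members were called, all lower, among them all 5 enzymes of lower glycolysis. Of the 9299 genes tested, 16.3% were called in either direction and 8.99% were called lower, and of those with at least 100 CPM 19.9% were called lower, against 18 of 27 members (66.7%). Medians were -0.37 for all members, -0.64 for glycolytic and -0.24 for mitochondrial members, and 0.02 for all genes.

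Slc16a1 showed the largest called change. The KO Ly49C/I+ libraries held 25.8, 85.3, 35.4, 47.4 and 51.7 CPM, and the KO uneducated libraries ran from 72.6 to 124 CPM (median 96.3). Only the library at 85.3 CPM overlapped the uneducated range, and the log2 fold change was -1.05 ± 0.22, to 48.2% of the uneducated level (adjusted p = 0.00445).

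Ldha was at 1078, 1337, 1265, 1298 and 1484 CPM in Ly49C/I+ libraries and ran from 1829 to 2676 CPM (median 2227) in uneducated libraries. All Ly49C/I+ values lay below all uneducated values, at a log2 fold change of -0.80 ± 0.09 (adjusted p = 0.000146). Pgam1 (-0.79), Tpi1 and Pgk1 (-0.74 each), Gapdh (-0.70), Eno1 (-0.67), Aldoa (-0.61) and Pkm (-0.51) behaved alike, with no overlap between groups. How many of all genes had no overlap between these groups was not counted. For Gapdh the values were 566, 647, 642, 643 and 752 CPM against 931 to 1239 CPM (median 1006). Gpi1 (-0.49), Pfkl (-0.41) and the glucose transporter Slc2a1 (-0.37) were called with overlapping groups.

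Slc2a3, another glucose transporter, pointed upward, with 154, 198, 168, 130 and 81.4 CPM in Ly49C/I+ libraries against 81.6 to 157 CPM (median 128), and was not called (log2 fold change 0.21, adjusted p = 0.436). Slc16a3 was at 6.00 to 24.5 CPM, at -0.75 ± 0.27 with an adjusted p of 0.0630.

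The mitochondrial calls were Mdh2 (-0.58), Idh3a, a subunit of isocitrate dehydrogenase (-0.44), Dlat (-0.43), Fh1 (-0.38), Cs and Mdh1 (-0.36 each), Sdhb (-0.35) and Suclg1, of succinate-CoA ligase (-0.34). Mdh2 was at 444, 397, 445, 441 and 495 CPM against 581 to 726 CPM in uneducated libraries, so that the groups did not overlap. Idh3a and Cs did not overlap either, while the partner subunit Idh3b was at 0.15 and was not called. Calls fell to 14 without Ly49C/I+ library 4, which ended those of Slc2a1, Pfkl, Dlat, Sdhb, Fh1 and Mdh1. Of 13 libraries left out in turn, 8 each ended the calls of Slc2a1 and Pfkl, 9 that of Dlat and 6 that of Fh1. With offsets for GC content and length, Slc2a1, Dlat, Sdhb and Fh1 were no longer called. With the replicate block and these offsets, the mitochondrial calls fell from 8 to 2 (Idh3a and Mdh2), with Sdhb at -0.14. In that fit Pgam1 was not called either (adjusted p = 0.0594). Of 18 proliferation genes 7 were also called lower, led by Mcm3 (-0.56), Birc5 (-0.55) and Rrm2 (-0.52), with sums of 1896 to 2787 CPM against 2577 to 3053 CPM. Of the dissociation and stress genes 4 were called higher and 1 lower, with sums of 8747 to 14343 CPM against 5285 to 11012 CPM. Over all 9299 genes tested, 683 were called higher and 836 lower. The part of both lists in the result was not tested.

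Between the Ly49C/I+ comparisons in WT and KO mice, which share no library, 10 members were called in both, which is 76.9% of the 13 called in WT and 50% of the 20 called in KO. Over all genes called lower, 304 were shared, or 70.2% of those in WT and 36.4% of those in KO. The shared members include 8 that were called in the NKG2A+ comparison as well, namely Gpi1, Aldoa, Tpi1, Gapdh, Pgk1, Eno1, Ldha and Mdh2. In all, 13 glycolytic and 10 mitochondrial members were called in at least 1 comparison with uneducated cells, and 15 in none. Ldhb, among the 15, did not pass the filter. The others included Slc2a3, Hk1, Hk2, Pfkm, Pfkp, Pfkfb3, Aldoc, Pdk1, Pdhb and Sdha. These counts, and that of the 8 members, were not set against all genes, and the WT comparisons share their uneducated libraries. In bulk samples, fewer cells of a kind and less RNA per cell cannot be told apart.

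**Figure D3:**
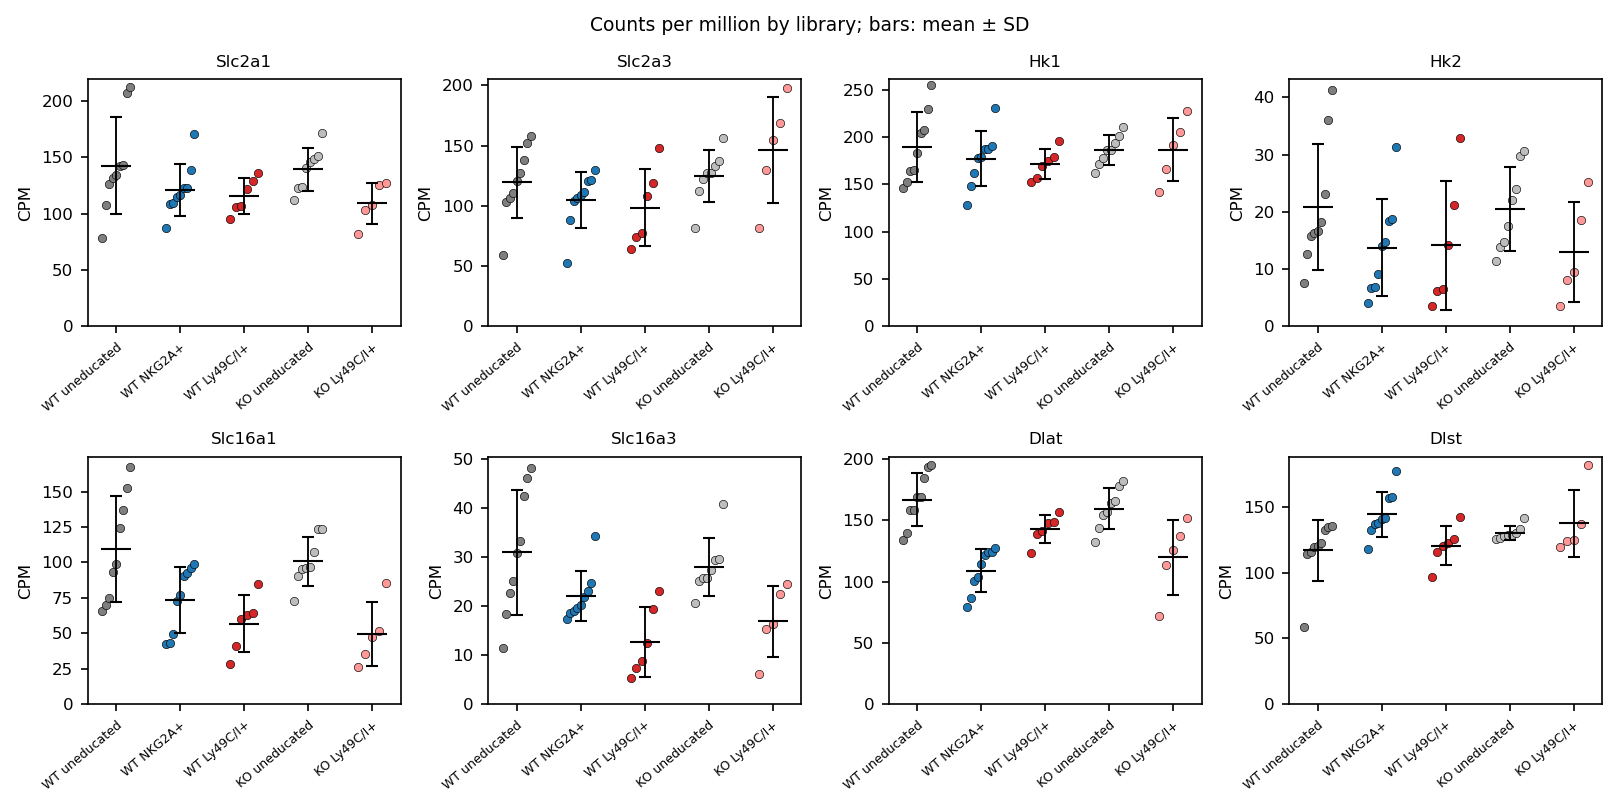
CPM of each library (points, placed by value, y axis from 0) in the 5 groups (x axis), with mean and SD (bars), for transporters, hexokinases and 2 mitochondrial members. Hk2 and Slc16a3 sat at or below 48.2 CPM and spread widely within groups, and Dlat ran from 79.1 to 128 CPM in WT NKG2A+ libraries, below all WT uneducated libraries.

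Several of the largest fold changes belonged to members of low level and were not called. Hk2, the inducible hexokinase, ran from 7.66 to 41.2 CPM (median 16.7) in WT uneducated, from 4.04 to 31.2 CPM (median 14.1) in WT NKG2A+ and from 3.60 to 33.0 CPM (median 10.4) in WT Ly49C/I+ libraries. The WT groups overlapped over most of their ranges, with log2 fold changes of -0.59 ± 0.35 and -0.56 ± 0.45. In KO, Hk2 was at 3.51, 18.6, 9.47, 8.05 and 25.2 CPM in Ly49C/I+ and at 11.5 to 30.6 CPM (median 19.8) in uneducated libraries (-0.68 ± 0.38, adjusted p = 0.239).

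Pfkm, the muscle-type phosphofructokinase, ran from 9.33 to 32.6 CPM (median 20.3) in WT uneducated and from 0.776 to 27.9 CPM (median 12.7) in WT NKG2A+ libraries (-0.63 ± 0.39). KO Ly49C/I+ libraries held 15.5, 10.2, 12.7, 25.0 and 9.53 CPM of Pfkm, against 14.1 to 39.8 CPM (median 22.9) in KO uneducated libraries (-0.69 ± 0.30). Groups of both genotypes overlapped. Aldoc, the brain-type aldolase, ran from 13.0 to 34.4 CPM (median 21.4) in WT uneducated, from 6.45 to 23.5 CPM (median 13.9) in WT NKG2A+ and from 4.64 to 18.6 CPM (median 12.2) in WT Ly49C/I+ libraries, with log2 fold changes of -0.64 ± 0.26 and -0.85 ± 0.30. Pfkfb3 was at 6.40 to 22.0 CPM (median 17.9) in WT uneducated and 4.53 to 18.4 CPM (median 10.1) in WT Ly49C/I+ libraries (-0.59 ± 0.34). Slc16a1 in WT NKG2A+ cells ran from 42.1 to 98.8 CPM (median 76.7) and missed the threshold (adjusted p = 0.0695).

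Hk1, the constitutive hexokinase, was among the members that moved least, with log2 fold changes of -0.09 ± 0.12, -0.15 ± 0.12 and -0.01 ± 0.10 in the NKG2A+ WT, Ly49C/I+ WT and Ly49C/I+ KO comparisons. Pdhb, of pyruvate dehydrogenase, was at -0.02 ± 0.07, -0.10 ± 0.10 and 0.06 ± 0.08. Pdk1, the kinase that inhibits the complex, was at -0.32 ± 0.23, -0.32 ± 0.32 and -0.21 ± 0.22 and was not called in any. Of the isocitrate dehydrogenase subunits, Idh3b was above 0 in all 3 (0.15 ± 0.09, 0.22 ± 0.12 and 0.15 ± 0.08), whereas Idh3a was below 0 (-0.17 ± 0.11, -0.29 ± 0.13 and -0.44 ± 0.08) and was called in KO.

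Summed over members, glycolytic genes came to 9735 ± 1638 CPM (SD, n = 9) in WT uneducated, 7359 ± 566 (n = 9) in WT NKG2A+, 7037 ± 753 (n = 6) in WT Ly49C/I+, 9411 ± 935 (n = 8) in KO uneducated and 6262 ± 516 CPM (n = 5) in KO Ly49C/I+ libraries. The mitochondrial sums ran in the same order of groups from 4321 ± 356 to 3706 ± 118, 3572 ± 156, 4161 ± 272 and 3465 ± 148 CPM. The ratio of the glycolytic to the mitochondrial sum was 2.25 ± 0.258 in WT uneducated and 2.26 ± 0.110 in KO uneducated libraries, and 1.98 ± 0.129, 1.97 ± 0.168 and 1.81 ± 0.103 in WT NKG2A+, WT Ly49C/I+ and KO Ly49C/I+ libraries. These sums are dominated by the abundant members and are given as a description, with no test.

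**Figure D4:**
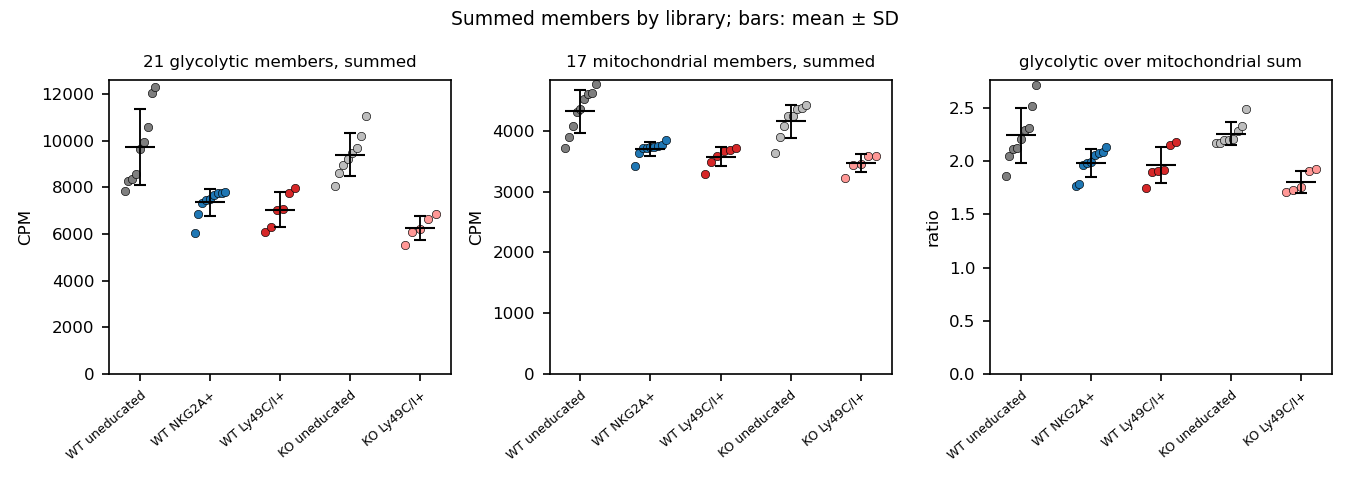
Summed CPM of the 21 glycolytic members (left) and 17 mitochondrial members (middle) and their ratio (right) in each library (points, placed by value), with mean and SD (bars), in the 5 groups. In KO mice the glycolytic sums of the groups do not overlap (5528 to 6852 against 8051 to 11049 CPM).

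NKG2A+ and Ly49C/I+ cells were compared with each other in WT mice. By the quasi-likelihood test 0 of 37 members were called, while 2.73% of all 9308 genes were. At an unadjusted p under 0.05 there were 8 members, a count that was not set against the share of all genes at that threshold. The likelihood ratio test and DESeq2 called 1 and 2 members. Dlat came closest, lower in NKG2A+ cells at -0.39 ± 0.11 in log2 (adjusted p = 0.0622). Slc16a3 had the largest difference, 0.80 ± 0.29 higher in NKG2A+ cells (adjusted p = 0.142). The median over members was 0.08 and the widest interval reached 1.37 on the log2 scale, so that differences of that size in single low genes could not be resolved.

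KO and WT cells of the same sort gate were compared to ask whether the metabolic genes differ between the genotypes. With NKG2A absent, the gate cannot remove cells that would have carried it, as it does in WT mice. Genotype and the make-up of the sorted groups could therefore not be told apart. In uneducated cells 0 members were called, as were 0.00% of all 9288 genes. No member had an unadjusted p under 0.05, and neither the likelihood ratio test nor DESeq2 called a member. Ldha was at 2222 ± 498 CPM (n = 9) in WT and 2220 ± 276 CPM (n = 8) in KO libraries, with a log2 difference of 0.00 and an interval of 1.96 SE from -0.23 to 0.23. In Ly49C/I+ cells 0 members were called and 0.00% of all 9344 genes. Here 8 members had an unadjusted p under 0.05, of which 5 were lower in KO (Gpi1 at -0.23 among them) and Slc2a3 (0.56), Pfkfb3 (0.76) and Ogdh (0.24) were higher. This count was not set against the share of all genes at that threshold. The likelihood ratio test and DESeq2 called no member, against 60 and 115 genes in all.

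The effect of Ly49C/I was compared between genotypes directly, as the difference of the KO and WT differences. It was called for 0 members and 0.00% of all 9322 genes, with 0 members at an unadjusted p under 0.05 and none by the likelihood ratio test or DESeq2. All 5 enzymes of lower glycolysis had a negative difference, between -0.29 and -0.10, and the widest interval over members reached 1.56. The fold changes in KO were therefore not shown to differ from those in WT. The limit of the gate in KO mice holds here too.

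**Figure D5:**
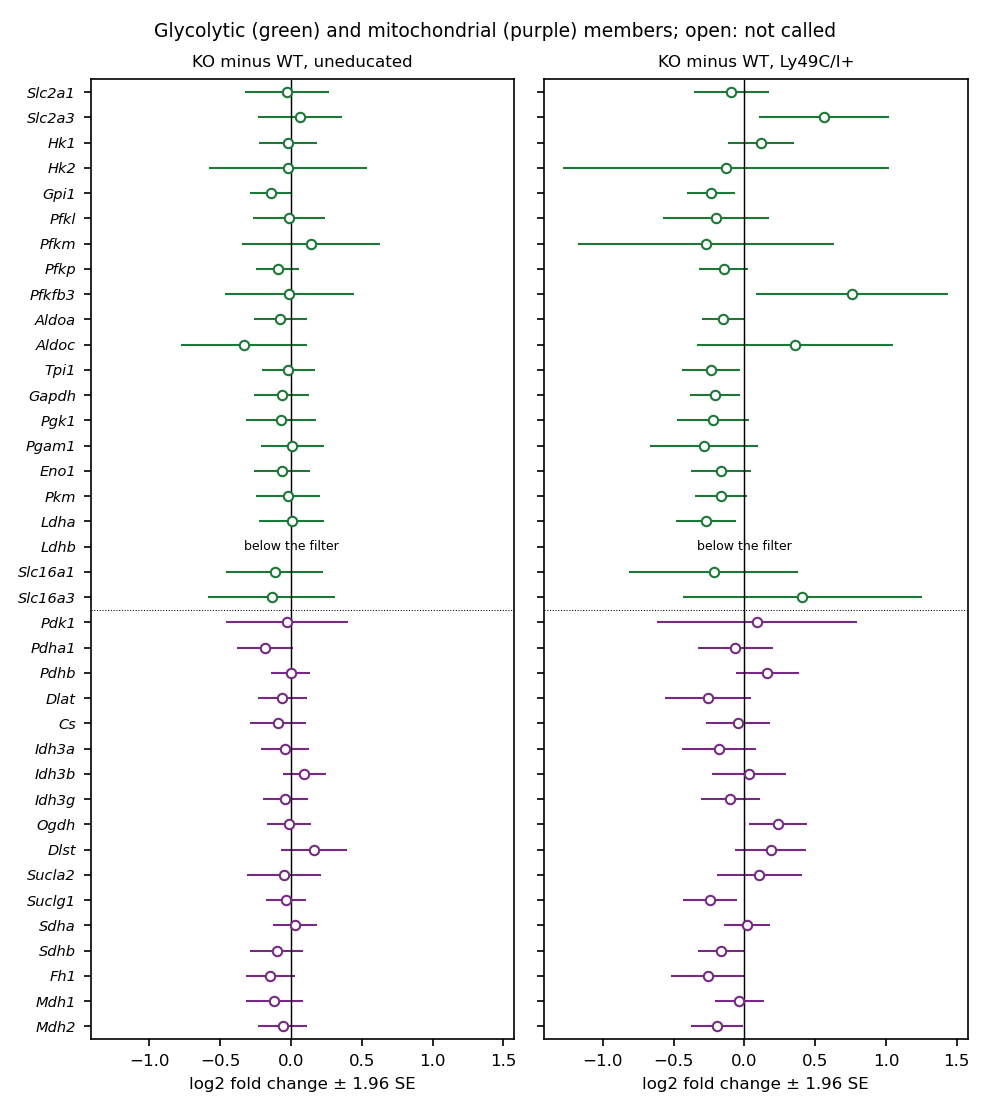
Log2 difference (x axis, points, with bars of 1.96 SE) of each member (y axis, by pathway order) between KO and WT uneducated cells (left) and KO and WT Ly49C/I+ cells (right). All points are open, since no member was called, and intervals are wider on the right, where 5 and 6 libraries were compared.

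Isozymes of a step were set against each other as log2 ratios of CPM with a pseudocount of 1, in 6 pairs and 6 comparisons. By a two-sided exact permutation test, 0 of 36 ratios passed after adjustment (lowest adjusted p = 0.392). At an unadjusted p under 0.05 were Pfkp to Pfkl in NKG2A+ against uneducated WT cells, higher by 0.28 (exact permutation p = 0.0194, n = 9 and 9), and Ldha to Ldhb, which rests on the few reads of Ldhb. For Hk2 to Hk1 in KO, the difference of Ly49C/I+ from uneducated cells was -0.79 in log2 (exact permutation p = 0.113, n = 5 and 8). Ldhb, the heart-type subunit, had no read in any of the 5 KO Ly49C/I+ libraries, which allows up to 0.0335 CPM over the group, and at most 12.5 CPM in any library.

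Other genes near these pathways were counted by list. Over all genes tested, 7.56%, 4.70% and 8.99% were called lower in the NKG2A+ WT, Ly49C/I+ WT and Ly49C/I+ KO comparisons with uneducated cells. Called higher were 698 of 9339, 418 of 9292 and 683 of 9299 genes. Of 31 tested genes of pyruvate and TCA metabolism outside the members, 4, 4 and 8 were called lower and 0 higher in NKG2A+ WT, Ly49C/I+ WT and Ly49C/I+ KO cells, against uneducated cells. Got2, the mitochondrial aspartate aminotransferase, and Sdhd were among them in each, at -0.34, -0.36 and -0.50 and at -0.29, -0.39 and -0.32. Of 6 pentose phosphate genes, 2, 0 and 3 were lower, the largest being G6pdx, which starts the pathway, at -0.62 in KO. Of 9 other glycolysis genes, Hk3 was called higher (0.74) in NKG2A+ cells and 0 were called in the other comparisons.

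Of 18 regulators of glycolysis, 3, 2 and 3 were called lower and 0, 0 and 1 higher in the NKG2A+ WT, Ly49C/I+ WT and Ly49C/I+ KO comparisons. Epas1, which encodes HIF-2α, changed most. It was at 25.7 to 159 CPM (median 74.8) in WT uneducated, 4.57 to 30.2 (median 12.5) in WT NKG2A+ and 1.21 to 19.6 CPM (median 10.2) in WT Ly49C/I+ libraries. The log2 fold changes were -2.37, -2.78 and, in KO, -3.00 (adjusted p = 0.000288, 0.00552 and 0.00137). Srebf2, a regulator of sterol synthesis, was lower in all 3 comparisons (-0.52, -0.59 and -0.50), and Hif1a was at -0.40 in Ly49C/I+ WT cells (adjusted p = 0.101) and at -0.41 in KO (adjusted p = 0.0378). Srebf1 was lower in NKG2A+ cells (-0.31), and Txnip, which restrains glucose uptake, was the regulator called higher in KO (0.49). Of 11, 10 and 11 tested HIF targets outside glycolysis, 1 was called lower in each comparison and 1, 0 and 1 higher. The median log2 fold changes of this list were 0.06, 0.02 and 0.10. Ero1l was lower in all 3 (-1.15, -1.43 and -1.06), while Kdm3a was higher in NKG2A+ WT and Ly49C/I+ KO cells (0.82 each). NK cell genes went both ways, with Prf1 (-0.69, -0.70 and -0.46) and Gzmb (-0.68, -0.57 and -0.33) lower and Klrk1 (0.71, 0.50 and 0.42) and Ncr1 (0.64, 0.26 and 0.33) higher.

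Counts of some members are uncertain because stretches of 50 bases also occur in other genes, whose kinds were not counted. This held for 53.9% of the stretches of Pgk1, 36.2% of Pgam1, 26.0% of Eno1, 25.8% of Pkm, 25.1% of Gapdh and 15.8% of Gpi1, and for 9.26% of Ldha, 6.43% of Aldoa and 4.18% of Tpi1. Mdh2, Dlat, Slc16a1 and Slc16a3 had none.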

How the data were processed

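RNA-seq libraries of sorted uNK cells were analysed from the counts the authors deposited, 37 files with 1 count for each of 53700 Ensembl genes and 5 summary lines, which were left out. The authors extracted total RNA, made cDNA with the SMART-Seq v4 kit and libraries with Nextera XT, and used TrimGalore 0.5.0, STAR 2.7.1 and GRCm38. The counting program, with any use of strand, was not given in the sources used here. Counts were not normalized, and for their own tests the authors used CQN, which was replaced here by offsets from splines. Reads with no unique position were 11.3% to 13.8% of reads and were given to no gene, which lowers counts of genes with close copies.

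TMM factors over all 37 libraries set the library sizes for CPM. A gene entered a test when 5 CPM were reached in a share of 0.5 or more of its libraries, and edgeR 4.0.16 was used in R 4.3.3 (quasi-likelihood test, groups compared only, Benjamini-Hochberg adjustment over all genes tested). Intervals are 1.96 SE wide on each side. WT Ly49C/I+ libraries carry the numbers of their description in the labels, and the titles number 4 of the 6 differently. The description of WT uneducated library 5 repeats that of library 4, and its title was used. The replicate block rests on these numbers. Aldoa has 2 Ensembl identifiers and the one that overlaps the RefSeq gene was used. Gene positions came from GENCODE M21 and promoters from RefSeq (GRCm38.p6). Ratios used exact permutation tests. On counts simulated for the comparison of NKG2A+ with uneducated cells, over 9164 genes, 21% of genes changed by 0.5 and 67% of those changed by 1 on the log2 scale were recovered. The shares were 18% and 46% for KO against WT Ly49C/I+ cells (9141 genes), and 10% and 36% for the difference between genotypes (9189 genes). Each simulation changed 100 genes by each size, evenly in both directions. Since the adjusted threshold depends on how many genes change, these shares hold for that setting only. The alternatives were the likelihood ratio test, DESeq2 1.42.0, RLE factors, total counts, other filters, offsets for GC content and length, a block for the replicate number, a fit of the 5 groups together, and omission of single libraries. Leaving out libraries with fewer than 14500 genes detected was chosen after seeing the data. Members, lists and the rule for named genes (all members past the threshold, values for the 10 largest changes per comparison, and up to 3 called genes of each other list) were chosen with earlier results of these data known. Since amplified reads carried no molecular identifiers, they are not independent, and the limit for a count of 0 (3 counts) covers counting error only.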

Additional observations from a re-analysis of the deposited data

Results flagged for a closer look

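Over 199 groups of values (each member and each summed set in each group of libraries), 18 held a library farther from the others than Dixon's 95% limit allows, in 11 different libraries. Chance alone flags about 1 in 20 such groups.

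WT NKG2A+ library 6 accounted for 5 flags, as the lowest of its group for Gapdh (593 CPM, next 725), Pkm (736 CPM, next 879), Ldha (1392 CPM, next 1696), Sdha (296 CPM, next 343) and the summed mitochondrial members (3426 CPM, next 3644). Without this library 10 of 37 members were called.

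WT uneducated library 5 was the lowest for Dlst (59.0 CPM, next 115) and the highest for Mdh1 (848 CPM, next 639). WT Ly49C/I+ library 5 was the lowest for Pdk1 (6.52 CPM, next 29.5) and Mdh2 (393 CPM, next 507). KO Ly49C/I+ library 8 was the highest for Pfkl (147 CPM, next 101) and Dlst (182 CPM, next 138).

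The rest were single values. Ldhb was highest in WT uneducated library 2 (5.16 CPM) and in WT Ly49C/I+ library 2 (12.5 CPM, with 0 in the other libraries of that group). Slc16a3 was highest in KO uneducated library 2 (40.8 CPM) and WT NKG2A+ library 3 (34.3 CPM). Pdha1 was highest in WT Ly49C/I+ library 8 (102.5 CPM), Idh3g in WT NKG2A+ library 9 (284 CPM) and Dlst in KO uneducated library 6 (142 CPM).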

How the results depend on the processing

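Under the alternatives tried, no called member changed direction. In NKG2A+ WT cells 9 members were called with no filter on low counts, and in Ly49C/I+ WT cells 7, each among more genes tested, and leaving out 1 library gave 10 to 18 and 8 to 17. In KO cells the count was 12 with the replicate block and offsets for GC content and length, and 14 to 21 with 1 library left out. Ogdh in NKG2A+ cells kept its call in 8 of 30 alternatives, Pdha1 in WT Ly49C/I+ cells in 11 of 26 and Slc2a1 in KO in 8 of 24. Between NKG2A+ and Ly49C/I+ cells 1 member (Dlat) was called by the likelihood ratio test, with GC content and length offsets, with these offsets and the replicate block, and without Ly49C/I+ library 1 (0 to 1 with 1 library left out), and 2 (Dlat and Sucla2) by DESeq2. With a pseudocount of 5, 1 ratio (Ldha to Ldhb, lower by 0.69 in KO Ly49C/I+ cells) passed. Beyond the larger number of genes tested with no filter, the cause was not tested. Gpi1, Aldoa, Tpi1, Gapdh, Eno1 and Mdh2 kept their calls in all 3 comparisons with uneducated cells under every alternative.

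With the number of each library as a replicate block, 14, 16, 0 and 14 members were called in the NKG2A+ WT, Ly49C/I+ WT, NKG2A+ against Ly49C/I+ and KO comparisons, against 14, 13, 0 and 20 without it. Same-numbered libraries correlated above 0.1 in 2 of 9, 4 of 6, 2 of 6 and 1 of 5 pairs and were best with their own number in 6 of 9, 6 of 6, 5 of 6 and 2 of 5, a hint from the data only. Fits with all 5 groups called Dlst higher in NKG2A+ WT cells, and offsets called Idh3b higher in KO cells. Without the libraries with few genes detected, 15, 13 and 20 members were called in the 3 comparisons with uneducated cells. Hk2, Pfkm and Aldoc, which spread widely between libraries of a group, had SEs of 0.25 to 0.45 in the comparisons with uneducated cells.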
